A study of Mus musculus with 8 samples.

Results

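Notch signalling is the pathway described here, through 10 genes measured on Clariom S Mouse arrays: the receptors Notch1, Notch2, Notch3 and Notch4, the ligands Jag1 and Dll1, and the target genes Hes1, Hey1, Hey2 and Heyl. The genes were taken by symbol from the array annotation, with the transcript cluster (the array's probe set for a gene) of the highest mean where a symbol had more than 1; all 10 were matched, of 19505 symbols in all, and none of them had a second cluster. Each of the 8 arrays held RNA from a culture of mouse postnatal tail-tip fibroblasts (TTFs), and every culture, the controls included, carried retroviruses for GHMT (Gata4, Hand2, Mef2c and Tbx5), transcription factors that turn fibroblasts into cardiomyocyte-like cells; cells without GHMT were not analysed here. In TTF set 1 the cultures were GHMT with vehicle (DMSO), GHMT with diclofenac, GHMT with an EP4 antagonist, and GHMT with diclofenac plus PGE2; in TTF set 2 they were GHMT with vehicle, GHMT with the EP4 antagonist, GHMT with a TGFb inhibitor and GHMT with a Wnt inhibitor. Diclofenac inhibits the cyclooxygenases that make prostaglandins, PGE2 is prostaglandin E2, and EP4 is one of its receptors. There were thus 2 arrays, 1 per set, of GHMT and of the EP4 antagonist, and 1 array of each of the other 4 groups. The sources used here give no doses, day of harvest, mouse strain or age, and nothing in them says whether the sets came from separate animals, so p-values measure only the spread between these arrays. GHMT cultures are mixtures of cells, and in such bulk RNA fewer cells of a type and less RNA per cell cannot be told apart.

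Notch receptors are membrane proteins activated by Jagged or Delta ligands on a neighbouring cell. ADAM proteases and then the gamma-secretase complex cut the bound receptor, and the freed intracellular domain joins the DNA-binding protein RBPJ and a Mastermind co-activator to switch on genes such as those of the Hes and Hey families, which encode basic helix-loop-helix repressors. In the heart the pathway acts in endocardium, valves and ventricular wall, and in mural cells it supports the contractile state.

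All values are log2 expression values as the authors deposited them. Each array has 23 background probe sets, and their 95th percentile, 5.73 to 5.99, served as its background level; 43.7% to 45.7% of the 22206 transcript clusters were above it. Arrays correlated at 0.986 to 0.995 within a set and at 0.974 to 0.984 between sets, so differences are given within a set unless stated. Of the 9 fibroblast markers matched, 8 were above background in all 8 arrays and Tcf21 in none. Endothelial markers, the cell type in which Notch4 is best known, were at background in all 8 arrays for 11 of 12 genes, Pecam1 and Cdh5 among them, as were all 6 markers of skeletal muscle progenitors, 5 of 6 of keratinocytes, 4 of 5 of macrophages and leukocytes and all 3 of Schwann cells. Mural and smooth muscle markers were above background in all 8 arrays for 5 of 10 genes.

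Among the receptors, Notch2 was the one measured above background. Its values in set 1 were 10.52 with GHMT, 10.18 with diclofenac, 10.12 with the EP4 antagonist and 10.11 with diclofenac plus PGE2, and in set 2 they were 10.91 with GHMT, 11.02 with the EP4 antagonist, 10.59 with the TGFb inhibitor and 10.72 with the Wnt inhibitor. The GHMT array was the highest of set 1 and the EP4 antagonist array the highest of set 2, and the lowest array of set 2 lay above the highest of set 1. The sets differed in part in their treatments, and the share of all clusters separated in this way was not computed. Notch1 (3.76 to 4.47), Notch3 (4.26 to 4.95) and Notch4 (3.49 to 4.04) were at background in all 8 arrays, where differences between arrays have no reading as expression.

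Of the ligands, Jag1 was above background in all 8 arrays and Dll1 in none. Jag1 encodes Jagged1, a ligand of Notch1 and Notch2 among others. In set 1 it stood at 8.91 with GHMT, 9.37 with diclofenac, 9.18 with the EP4 antagonist and 8.08 with diclofenac plus PGE2. In set 2 it stood at 8.18 with GHMT, 8.76 with the EP4 antagonist, 8.39 with the TGFb inhibitor and 8.45 with the Wnt inhibitor. The culture given PGE2 was thus the lowest of its set, and GHMT was the lowest of the other. Dll1, which encodes Delta-like 1, ranged from 3.23 to 4.56.

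The target genes lay close to or under background. Hey2, whose product is a repressor of atrial genes in the developing ventricle, was the clearest, and in set 1 it read 6.81 under vehicle, 6.60 with diclofenac, 6.61 with the EP4 antagonist and 6.94 once PGE2 was added to diclofenac. In set 2 it was at 6.00 with GHMT, just over that array's background level of 5.90, and at 5.20, 5.39 and 5.15 with the EP4 antagonist, the TGFb inhibitor and the Wnt inhibitor, all at background. All 4 arrays of set 1 therefore lay above all 4 of set 2. As for Notch2, the share of all clusters with such a separation was not computed, so it is not read as a result about Hey2. Hes1, the general Notch target of many cell types, ranged from 5.35 to 6.07 and was above background in 2 arrays, GHMT of set 1 (5.95) and the Wnt inhibitor (6.07). Heyl ranged from 4.59 to 6.07 and was above background in 3 arrays, those with diclofenac, the EP4 antagonist and diclofenac plus PGE2 in set 1. Hey1 (4.15 to 5.36) was at background throughout. Measured against the highest background probe set of each array instead, Notch2 and Jag1 stayed above it in 8 arrays, Hey2 in 4, and Hes1 and Heyl in 1 each.

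**Figure D1:**
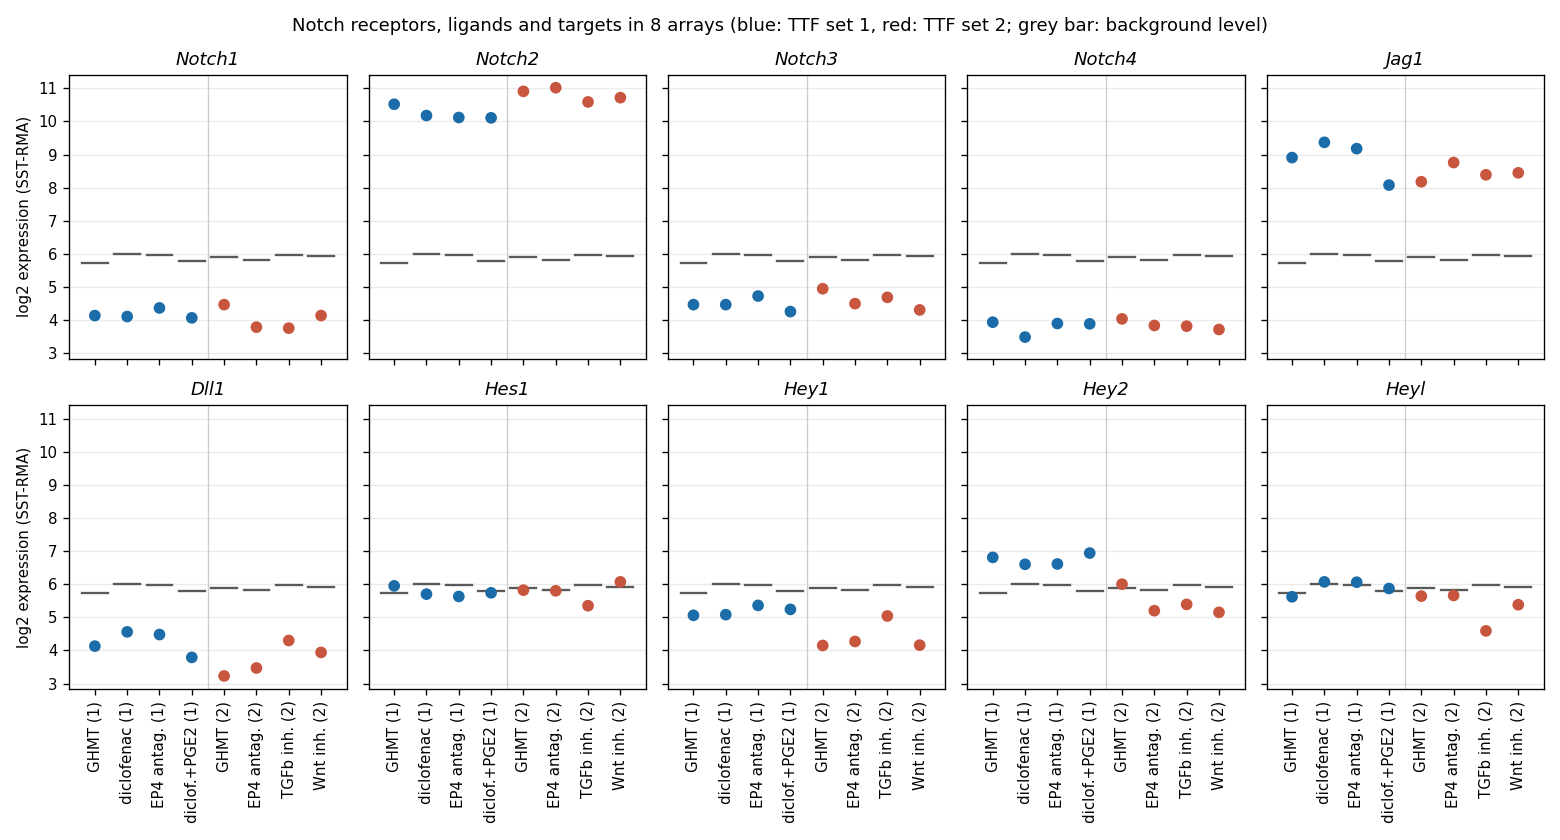
Log2 expression of the 10 Notch genes (one panel each) in the 8 arrays, named on the horizontal axis with the TTF set in brackets; blue points are set 1, red points set 2, and grey bars the background level of each array. Notch2 and Jag1 are above background in all 8 arrays and Hey2 in all 4 of set 1, while Notch1, Notch3, Notch4, Dll1 and Hey1 lie under it throughout; levels are not comparable between genes.

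Promoters are shown for Jag1, which had the largest within-set difference among the members above background, and for Hey2, the one target above background in all 4 arrays of set 1. The sequences are from RefSeq (GRCm38.p6), the 250 bases before the annotated start, written 5′ to 3′ on the gene's strand; 7 of the 10 members had an entry, and Hes1, Hey1 and Heyl had none. In the Hey2 promoter (chr10:30842784-30843033, minus strand) the capitals mark the RBPJ core GTGGGAA, found on the opposite strand and starting 207 bases before the start. In the Jag1 promoter (chr2:137116521-137116770, minus strand) the capitals mark the half-site TGACG of the cAMP response element, the sequence bound by CREB, on the opposite strand and starting 167 bases before the start.
Hey2: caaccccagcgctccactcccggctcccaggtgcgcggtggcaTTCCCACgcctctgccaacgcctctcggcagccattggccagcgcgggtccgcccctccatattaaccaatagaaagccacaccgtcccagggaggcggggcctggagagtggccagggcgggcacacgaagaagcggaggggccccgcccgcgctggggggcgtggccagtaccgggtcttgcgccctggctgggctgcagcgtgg
Jag1: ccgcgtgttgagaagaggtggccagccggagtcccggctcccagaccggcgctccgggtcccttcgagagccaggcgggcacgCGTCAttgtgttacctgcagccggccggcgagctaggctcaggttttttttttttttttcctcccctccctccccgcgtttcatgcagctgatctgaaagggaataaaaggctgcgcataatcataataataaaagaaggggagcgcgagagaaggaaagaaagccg
Searched on both strands, GTGGGAA was in 5.42% of the 32851 RefSeq promoter windows of this length, TGACG in 17.8% and the full element TGACGTCA, which contains the half-site, in 1.55%. Among the members with an entry, Hey2 alone held GTGGGAA, Jag1 and Notch3 held TGACG, and none held TGACGTCA. A match describes the letters and does not show binding.

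The first comparison within set 1 asked what blocking prostaglandin synthesis, blocking EP4 and giving PGE2 back did to these genes. Of the 10 members, 0 were at least 2-fold apart from GHMT with diclofenac, beside 1.81% of all clusters, 0 with the EP4 antagonist, beside 1.6%, and 0 with diclofenac plus PGE2, beside 1.81%. Of the clusters above background in at least 1 of the arrays compared, 2.99%, 2.68% and 3.06% were 2-fold apart with the higher array above background. Between diclofenac plus PGE2 and diclofenac, Jag1 was 2.45-fold lower with PGE2 (-1.29 on the log2 scale) and was the only member 2-fold apart, beside 2.16% of all clusters and 3.98% of those above background. Each of these differences is 1 array from 1 and has no replicate check, and those from GHMT share 1 array. Jag1 differed from GHMT by 0.46 with diclofenac, 0.27 with the EP4 antagonist and -0.83 (1.78-fold lower) with diclofenac plus PGE2. Notch2 differed from GHMT by -0.34, -0.40 and -0.41 in the same order. Hey2 differed by -0.21, -0.20 and 0.13, so it was lower than GHMT in both blocked cultures and higher with PGE2, by sizes smaller than 2-fold. The median difference of the 10 members was -0.01 with diclofenac, 0.24 with the EP4 antagonist and -0.14 with diclofenac plus PGE2, where that of all clusters was -0.01, -0.01 and 0.00. Over the 5 members above background in at least 1 of the arrays compared, these medians were -0.21, -0.20 and -0.21, so the value with the EP4 antagonist had the other sign.

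In set 2, the EP4 antagonist left 0 of 10 members 2-fold apart from GHMT, beside 2.74% of all clusters and 4.16% of those above background. Jag1 was higher by 0.58, more than in set 1, and Notch2 by 0.11, against -0.40 in set 1. Hey2 was lower by 0.80, or at least 1.13-fold, since the EP4 antagonist array lay at background and the bound is taken against that array's background level. With the Wnt inhibitor 0 members were 2-fold apart, beside 4.1% of all clusters and 6.79% of those above background; Jag1 differed by 0.27 and Notch2 by -0.19, while Hes1 was at least 1.13-fold higher and Hey2 at least 1.05-fold lower, each against an array at background. With the TGFb inhibitor 2 members passed 2-fold, beside 5.36% of all clusters and 9.52% of those above background, but both were at background in both arrays: Heyl (4.59 against 5.64) and Dll1 (4.30 against 3.23). Jag1 differed by 0.21 and Notch2 by -0.32 with the TGFb inhibitor. The median difference of the 10 members was 0.00 with the EP4 antagonist, -0.29 with the TGFb inhibitor and -0.22 with the Wnt inhibitor, where that of all clusters was -0.01, -0.01 and -0.02. Over the members above background in at least 1 of the arrays compared the medians were 0.11 (3 members), -0.32 (3) and 0.03 (4), so the value with the Wnt inhibitor had the other sign.

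**Figure D2:**
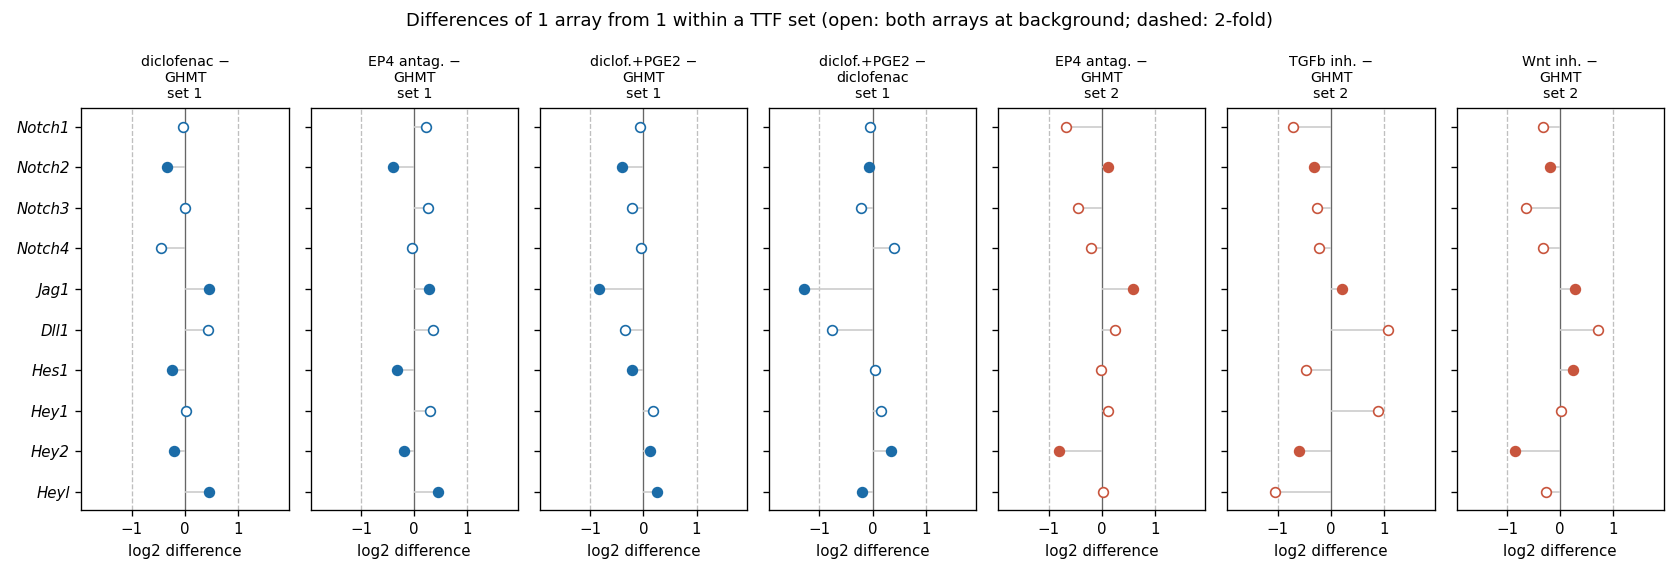
Log2 difference of each of the 10 Notch genes (rows) between 2 arrays of a TTF set, one panel per pair; open points have both arrays at background, and dashed lines mark 2-fold. Jag1 with diclofenac plus PGE2 against diclofenac, at -1.29, is the one filled point past 2-fold.

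Over both sets, the EP4 antagonist was compared with GHMT (2 arrays each) by limma. Jag1 averaged 8.97 ± 0.30 with the antagonist and 8.54 ± 0.52 with GHMT (SD, n = 2), a difference of 0.42 with a 95% interval of -0.52 to 1.37 (limma). Notch2 differed by -0.14 (interval -1.14 to 0.85) and Hey2 by -0.50 (-1.75 to 0.75). The Hey2 value rests on an EP4 antagonist array at background; with that array at its background level the difference was -0.19. The groups overlapped for these 3 genes. No member passed, and no cluster at all did by limma (0 of 22206, 0.0%), where 144 had an unadjusted p under 0.05 and 0 passed with a trend and robust prior. With the TTF set as a block the intervals narrowed, to -0.08 to 0.93 for Jag1, -0.69 to 0.40 for Notch2 and -1.07 to 0.07 for Hey2, and 0 clusters passed again, with 1243 unadjusted. For Notch2 and Jag1 the blocked interval lies inside 2-fold in both directions. Without the block it does not, reaching 1.37 for Jag1 and -1.14 for Notch2, so a 2-fold difference is not excluded.

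The broader comparison set the 3 arrays with the route from PGE2 to EP4 blocked (diclofenac, and the EP4 antagonist of both sets) against the 3 with it open (GHMT of both sets, and diclofenac plus PGE2). The arms pool treatments, and 4 of the 6 arrays are those of the comparison before. Jag1 averaged 9.10 ± 0.31 in the blocked arm and 8.39 ± 0.45 in the open arm (SD, n = 3). It was higher by 0.71 ± 0.29 (SE; 95% interval 0.05 to 1.37), which did not pass over all clusters (adjusted p = 1.00 by limma, unadjusted p = 0.0368). With the TTF set as a block the difference was 0.71 ± 0.22 (interval 0.23 to 1.19; adjusted p = 0.306 by limma). Within each set every blocked array lay above every open one, while across the sets the EP4 antagonist array of set 2 (8.76) lay under GHMT of set 1 (8.91). The share of all clusters separated in this way within each set was not computed, so the order is not read as a result. Leaving out 1 array in turn gave differences of 0.56 to 0.97. Hey2 was at -0.45 (adjusted p = 1.00, and 0.454 with the block, by limma), or -0.24 with its array at background raised to the background level, Notch2 at -0.07 and Hes1 at -0.13. Dll1, at background in all arrays, was at 0.45. Of the 10 members 5 had positive and 5 negative differences (median -0.03, against -0.01 for all clusters), and 0 passed with or without the block, beside 0.0% of all clusters without it (469 at an unadjusted p under 0.05, and 0 past the threshold with a trend and robust prior) and 0.378% with it.

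**Figure D3:**
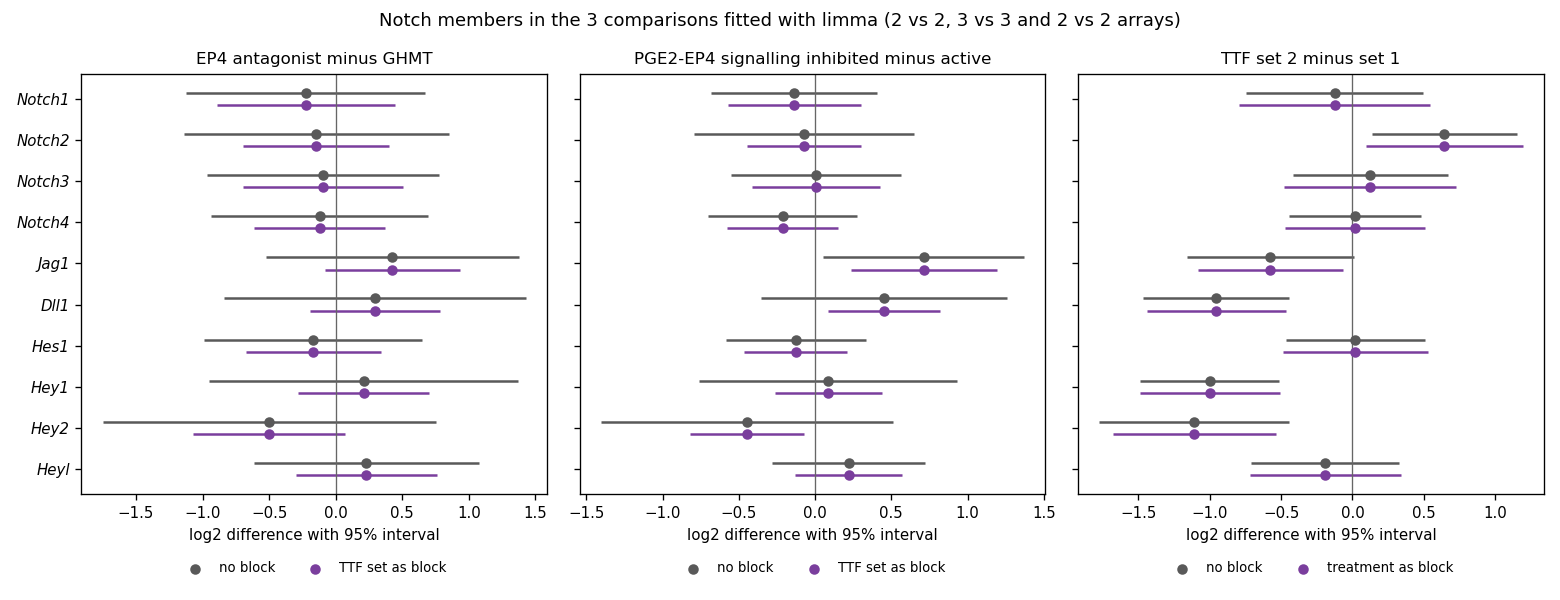
Log2 difference and 95% interval from limma for each of the 10 Notch genes (rows) in the 3 fitted comparisons (2 against 2, 3 against 3 and 2 against 2 arrays), grey without a block and purple with one (the TTF set in the first and middle panels, the treatment in the right panel). Jag1 has an interval above 0 when the blocked (inhibited) and open (active) arms are compared (0.05 to 1.37 without the block), and with the block Dll1 (above 0) and Hey2 (below 0) have such intervals too, though no member passed there after adjustment. Between the sets Notch2 has an interval above 0, Hey2, Hey1 and Dll1 have intervals below 0, and so does Jag1 with the block; of these only Hey2, Hey1 and Dll1 passed after adjustment.

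In set 1 Jag1 had the order of the mean of the cardiac muscle markers. There, the mean of the 8 cardiac muscle markers was 10.4 with GHMT, 11.9 with diclofenac, 11.4 with the EP4 antagonist and 10.2 with diclofenac plus PGE2. Of the 8 markers, 5 (Myh6, Actc1, Myl7, Ryr2 and Tnni3, the last at background) were lowest with diclofenac plus PGE2, as Jag1 was. Tnnt2, Nppa and Actn2 were lowest with GHMT. The share of all clusters lowest with diclofenac plus PGE2 was not computed. In set 2 the mean of the 8 markers was 9.84 with GHMT, 11.0 with the EP4 antagonist, 11.5 with the TGFb inhibitor and 11.5 with the Wnt inhibitor. There GHMT was the lowest for both this mean and Jag1, but the EP4 antagonist array was the highest for Jag1 alone. Between 6 and 7 of the 8 markers were above background in each array, and Tnni3 was at background in all. The mean of the 9 fibroblast markers was 13.9 with GHMT, 13.1 with diclofenac, 13.2 with the EP4 antagonist and 13.6 with diclofenac plus PGE2 in set 1, and spanned 12.7 to 13.5 in set 2. The part of these markers in the Jag1 differences was not tested.

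**Figure D4:**
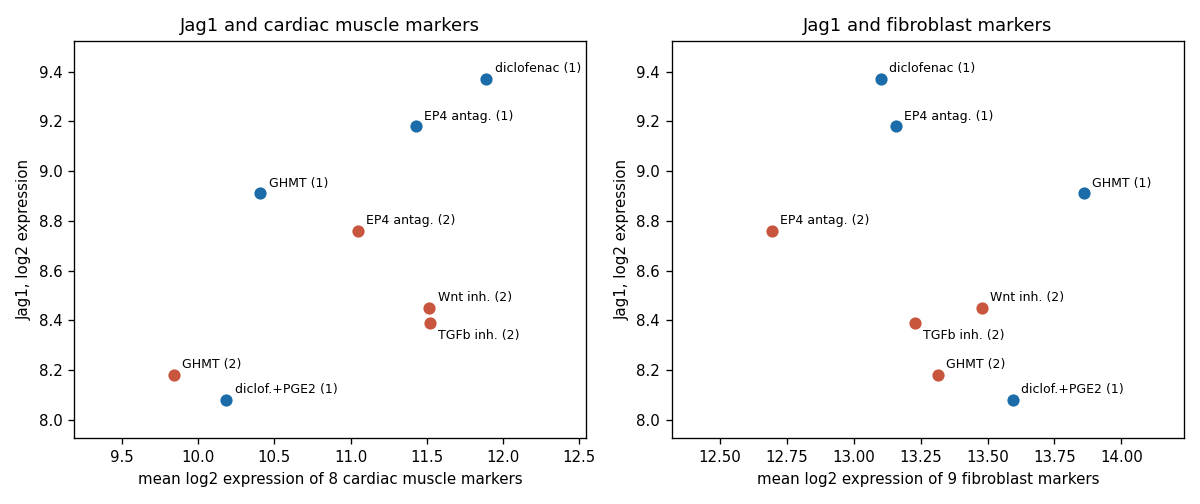
Log2 expression of Jag1 (vertical axis) against the mean log2 expression of 8 cardiac muscle markers (left) and 9 fibroblast markers (right); each point is 1 array, blue for TTF set 1 and red for set 2. In set 1 Jag1 and the mean of the cardiac markers have the same order over the 4 arrays, with Jag1 from 8.08 with diclofenac plus PGE2 to 9.37 with diclofenac. Tnnt2, Nppa and Actn2 do not have this order, being lowest with GHMT.

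A list of 61 other pathway genes, of which 57 were matched, held other ligands, the machinery around the receptors, and further targets and Hes family genes. Pdgfrb and Snai2, named below, were listed among the targets only. Of these 57, 36 were above background in all 8 arrays and 19 in none. All 8 matched genes of receptor cleavage were above background throughout, among them the protease Adam10 and the gamma-secretase subunits Ncstn, Aph1a and Psenen, as were 10 of 11 genes of the nuclear complex and its co-repressors, Rbpj among them (11.31 to 12.25). Of the 7 other ligands, 6 were at background in all arrays, Jag2, Dll3 and Dll4 among them; the exception was Dlk1, an imprinted Delta-like protein that lacks the domain by which classical ligands bind Notch. Of 15 further targets and Hes family genes 7 were at background in all arrays, including Nrarp, a feedback inhibitor that Notch induces (2.42 to 3.50), and Hes6; Hes5 was above background in 2.

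No pathway gene passed when the EP4 antagonist was compared with GHMT or the blocked with the open arm, with or without the TTF set as a block (0 of 57 in each). The median differences of the 57 genes were 0.08 and 0.05, against -0.01 for all clusters in both. In single-array differences within a set, 10 of the 57 were at least 2-fold apart at least once with the higher array above background. That is 26.3% of the 38 pathway genes above background in at least 1 array, beside 18.2% of all such clusters. With diclofenac plus PGE2 against GHMT 3 of 57 were 2-fold lower and 1 higher, beside 1.81% of all clusters (3.06% of those above background). These were Dlk1 (6.58 against 8.08, 2.83-fold), Pdgfrb, the PDGF receptor of fibroblasts and mural cells (11.32 against 12.54, 2.33-fold) and Maml2, a Mastermind co-activator (7.35 against 8.44, 2.13-fold), with Rfng, a glycosyltransferase of the Fringe family, 2.04-fold higher. Against diclofenac alone, 3 were lower with PGE2 and 0 higher, beside 2.16% of all clusters and 3.98% of those above background. These 3 were Dlk1 (2.39-fold), Maml2 (2.10-fold) and Maml1 (2.08-fold), each from 1 array against 1. Of the 11 genes of the nuclear list, 2 (Maml1 and Maml2) had their lowest value of set 1 in the culture given PGE2 and 4 (Rbpj, Spen, Hdac1 and Kdm5a) their highest. The share of all clusters lowest or highest there was not computed, so these counts are not read as a result. For Rbpj the highest value was 11.79, against 11.77 with GHMT. With diclofenac and with the EP4 antagonist of set 1, 0 of the 57 were 2-fold apart from GHMT, beside 1.81% and 1.6% of all clusters.

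In set 2 the EP4 antagonist left Numbl, a relative of the Notch inhibitor Numb, 2.22-fold higher (8.71 against 7.56) and Fbxw7, the ubiquitin ligase subunit that marks the Notch intracellular domain for breakdown, 2.04-fold higher. Dlk1 was 2.10-fold lower (6.50 against 7.57), and it was lower by 0.56 in set 1 too. The value of 6.50 lay above that array's background level but under its highest background probe set (6.59). Over both sets Dlk1 differed by -0.82 ± 0.45 (SE; adjusted p = 1.00 by limma) and with the block by -0.82 ± 0.22 (adjusted p = 0.771 by limma). Between the blocked and the open arm Dlk1 differed by only -0.12. With the TGFb inhibitor Dlk1 was 2.08-fold higher (8.63), and Dtx2, of the Deltex ubiquitin ligases that act on Notch, 2.11-fold higher (7.82 against 6.74). With the Wnt inhibitor Pdgfrb was 2.85-fold higher (13.11 against 11.60), Snai2, the mesenchymal repressor Slug, 2.71-fold higher (15.14 against 13.70) and Dtx4 2.13-fold higher (7.58 against 6.49). Neither inhibitor of set 2 left a pathway gene measured above background 2-fold lower than GHMT. Counting genes at background too, 3 of the 57 were 2-fold apart from GHMT with each of the EP4 antagonist, the TGFb inhibitor and the Wnt inhibitor. Of all clusters 2.74%, 5.36% and 4.1% were 2-fold apart in the same order, and 4.16%, 9.52% and 6.79% of those above background. These shares count both directions, and a share of lower clusters alone was not computed.

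**Figure D5:**
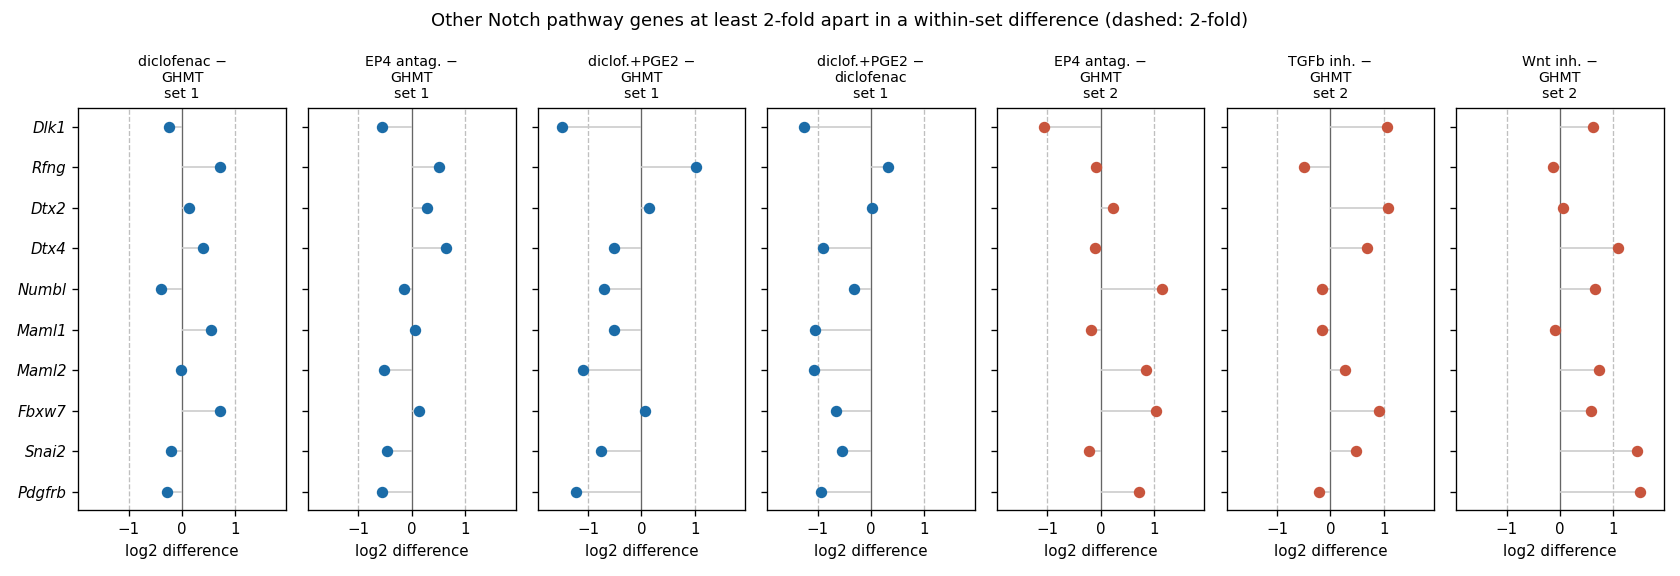
Log2 difference of the 10 other pathway genes that were at least 2-fold apart in some pair of arrays (rows), one panel per pair within a TTF set; dashed lines mark 2-fold. Dlk1 lies at -1.50 with diclofenac plus PGE2 and at 1.06 with the TGFb inhibitor, and Pdgfrb and Snai2 lie at 1.51 and 1.44 with the Wnt inhibitor.

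The TTF sets were compared over the GHMT and EP4 antagonist arrays (2 of set 2 against 2 of set 1). The 2 arrays of a set were 1 GHMT and 1 EP4 antagonist culture whose titles carry the same TTF number. The SDs, standard errors and p-values below therefore rest on the spread between cultures of a set and not on replicate fibroblast sets. Hey2 averaged 5.60 ± 0.57 in set 2 and 6.71 ± 0.14 in set 1 (SD, n = 2), lower by 1.11 ± 0.29 (SE; adjusted p = 0.0356 by limma), with 1 of 2 arrays of set 2 above background. With the other array at its background level the difference was -0.80, which is a lower bound on its size. Median centring left a difference of -0.94 that did not pass (adjusted p = 0.0527 by limma), while it passed with the treatment as a block (adjusted p = 0.0357 by limma) and after quantile normalization (-1.10, adjusted p = 0.0474 by limma). The call was also lost on leaving out any 1 of the 4 arrays (adjusted p 0.0985 to 0.231 by limma, differences of -1.51 to -0.71). Notch2 was higher in set 2 by 0.64 ± 0.22 (adjusted p = 0.0708 by limma), a difference that passed after median centring (0.81, adjusted p = 0.0432 by limma) and shrank to 0.29 after quantile normalization. Jag1 was at -0.57 ± 0.25 (adjusted p = 0.129 by limma). Dll1 (-0.95) and Hey1 (-1.0) passed too, with adjusted p = 0.0274 and 0.0210 by limma, but both were at background in all 4 arrays and neither passed after quantile normalization. So 3 of 10 members were called lower and 0 higher, beside 20.4% of all clusters called (4523, of which 2028 higher and 2495 lower). Median centring turned that split to 2779 higher and 1206 lower. The median over all clusters was -0.18. Clusters at background in all 4 arrays had a median of -0.39, with 15.4% called lower, and those above background in all 4 a median of 0.24, with 4.58% called lower. Without any 1 of the 4 arrays, 0 clusters passed by limma (5351 to 6831 at an unadjusted p under 0.05).

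Of the 57 other pathway genes, 7 were lower and 3 higher in set 2, or 17.5% called beside 20.4% of all clusters. Snai2 was lower by 1.91 ± 0.23 (adjusted p = 0.00559 by limma) and Dtx4 by 1.77 ± 0.26 (adjusted p = 0.00851 by limma), and both passed under median centring and quantile normalization. Their Wnt inhibitor arrays, at 15.14 and 7.58, lay within the range of set 1 (14.98 to 15.73 for Snai2, 7.36 to 8.53 for Dtx4), unlike GHMT of set 2. Each of these values is 1 array, and GHMT of set 2 was among the arrays by which both genes were called. The share of called clusters with such a Wnt inhibitor value was not computed. The other 5 that were lower, Jag2, Dll3, Dner, Mfng and Epas1, were at background in all 8 arrays. Ncstn (0.80), Aph1a (0.76) and the co-repressor Ctbp1 (0.76) were higher, and none of these 3 passed with the treatment as a block (adjusted p = 0.0501, 0.0516 and 0.0535 by limma) or after quantile normalization. The sources used here do not say whether the arrays of both sets were normalized together, so the culture and the handling of a set cannot be told apart.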

How the data were processed

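The deposited table holds log2 expression values of 8 arrays, 1 per culture. The authors made them by SST-RMA normalization, using Affymetrix Expression Console 1.4, per the labels and the submitters' processing notes; the sources used here do not give a genome build, filters or whether both sets were processed together. Of 28846 rows, 6640 control probe sets were left out of the tests, and 19572 of the 22206 transcript clusters had 1 gene symbol in the platform annotation (19505 symbols, 55 on more than 1 cluster, 2634 clusters unnamed here).

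Groups and set numbers came from the sample titles. The members, lists and background rule were chosen with earlier results of these data known. All members are named, and other pathway genes where 2-fold apart within a set, the higher array above background, or past a test's threshold. No member met the rule for naming genes of like pattern (2-fold from GHMT, above background in at least 4 arrays). Tests used limma 3.58.1 (R 4.3.3), moderated, two-sided, adjusted by Benjamini-Hochberg over all clusters at 0.05, after a check on simulated data. A ± after a difference is the standard error. Single-array differences were counted at 2-fold. The set number was also fitted as a block, since the titles attach it to the fibroblasts, component 1 (56.6% of variance) separated the sets, and GHMT and EP4 antagonist arrays of the same number deviated together (r = 0.724). Alternatives were quantile normalization, median centring, a filter on dim clusters, another prior, a 1.5-fold threshold, another background level and leaving out each array. The number of arrays limits the precision.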

Additional observations from a re-analysis of the deposited data

Results flagged for a closer look

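The EP4 antagonist was the one treatment present in both TTF sets, and 7 of the 12 genes examined (the members and the pathway genes named for a 2-fold difference, where above background in all 4 arrays concerned) had differences of opposite sign in the sets, beside 45.1% of all 9104 clusters above background in those arrays. Some of the 12 were named for a 2-fold difference in this same contrast. Each direction rests on 1 array against 1, and the difference between the sets was not tested. Notch2, the receptor above background, was at -0.40 (log2, EP4 antagonist minus GHMT) in set 1 and 0.11 in set 2. Numbl was at -0.14 and 1.15, Maml2 at -0.53 and 0.85, and Pdgfrb at -0.55 and 0.72, so these 3 were lower in set 1 and higher in set 2. Dtx4 was at 0.65 and -0.11, Rfng at 0.52 and -0.08, and Maml1 at 0.07 and -0.18, so these 3 ran the other way.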

How the results depend on the processing

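With the TTF set as a replicate block, the comparison of the blocked with the open arm went from 0 to 84 clusters past the threshold, none of them a member or pathway gene; the block changed no other call among the members. Without 1 array in turn that count was 0 to 3, and for the EP4 antagonist against GHMT it went from 0 to 1 to 25; these fits have no block and set arms of unequal set make-up against each other. Between the sets the 4523 calls became 1906 after quantile normalization, 2359 with a filter on dim clusters (fewer were tested) and 0 to 0 without 1 array; the cause of the first was not tested. At a 1.5-fold threshold the members apart numbered 1 with diclofenac plus PGE2 against GHMT, 2 against diclofenac, 2 with the EP4 antagonist in set 2, 5 with the TGFb inhibitor and 3 with the Wnt inhibitor, of which 1 in each had an array above background, beside 10.5%, 10.4%, 12.8%, 16.5% and 16.7% of all clusters. Quantile normalization left 1 at 2-fold with the TGFb inhibitor. Notch1 between the sets turned to 0.04 with median centring and 0.21 with quantile normalization. Leaving out 1 array turned signs as well. For the EP4 antagonist against GHMT the ranges were -0.52 to 0.065 for Notch1, -0.59 to 0.30 for Notch2, -0.34 to 0.14 for Notch3, -0.21 to 0.80 for Dll1, -0.34 to 0.76 for Hey1 and -1.21 to 0.20 for Hey2. For the blocked against the open arm they were -0.28 to 0.013 for Notch1, -0.36 to 0.12 for Notch2, -0.14 to 0.20 for Notch3, -0.25 to 0.40 for Hey1 and -0.74 to 0.022 for Hey2. Between the sets they were -0.46 to 0.21 for Notch1, -0.10 to 0.35 for Notch3, -0.08 to 0.12 for Notch4, -0.14 to 0.18 for Hes1 and -0.41 to 0.03 for Heyl. Jag1 kept its direction in every alternative run. Within-set member differences moved by at most 0.086 under quantile normalization and 0.04 under median centring. A mean over all clusters of a symbol gave no other value, since no member had more than 1.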
